A study of Mus musculus with 6 samples.

Results

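Long intergenic noncoding RNAs (lincRNAs) were measured by RNA-seq in 6 libraries of primary mouse motoneuron cultures. A gene was included if the deposited tables typed it as lincRNA, if its mean over the 6 libraries reached 2 FPKM (fragments scaled to transcript length and to the mapped total of the library), and if it lay on an autosome; the imprinted genes H19, Meg3, Rian, Mirg and Peg13 were left out. This rule gave 119 genes of 1795 typed as lincRNA and of 39174 genes in all. A mean of 2 FPKM was reached by 130 lincRNAs, of which 8 lay on the X chromosome and 3 were among the imprinted genes. At the threshold, AI854703 (mean 2.01 FPKM) and Gm12688 (2.11 FPKM) lay just inside, and RP24-312G4.2 (1.99 FPKM) and 1110019D14Rik (1.95 FPKM) just outside. The genes were chosen by their mean FPKM, so their levels are given as a description.

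The groups were 3 libraries from Nmd-/- cultures and 3 from Nmd+/+ cultures, all of strain CD-1, each with replicate numbers 1 to 3. Nmd stands for neuromuscular degeneration, a spontaneous mouse mutation of Ighmbp2, which encodes an RNA and DNA helicase; it does not stand for nonsense-mediated decay. The labels name no treatment, time in culture or age. They also leave unsaid whether the replicates of a genotype were grown from separate animals, and the spread that enters a p-value here may thus be partly technical.

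LincRNAs are transcribed by RNA polymerase II, capped and mostly spliced, but have no long conserved reading frame. Some act in the nucleus (Malat1 in nuclear speckles), some are precursors whose introns or exons carry small nucleolar RNAs (snoRNAs) or microRNAs (miRNAs), and some start head to head with a protein-coding gene and share its promoter region. In neural tissue many are restricted to progenitors or to classes of neurons.

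Ighmbp2, the mutated gene, measured 0.876, 0.788 and 0.598 FPKM in Nmd-/- libraries, against 1.43, 1.3 and 1.09 FPKM in Nmd+/+ libraries, with no overlap. It averaged 0.754 ± 0.142 FPKM in Nmd-/- libraries and 1.28 ± 0.172 FPKM in Nmd+/+ libraries (SD, n = 3 each), a log2 difference of -0.38 (SE 0.14) that did not pass the test across all genes (limma adjusted p = 0.9997). The scale of log2(FPKM + 1) understates the change of low genes, and with a pseudocount of 0.1 the difference was -0.70. The summed FPKM per library lay between 664628 and 693258, and the width of the deposited 95% intervals was equivalent to between 15446383 and 23138151 fragments per library. Of the 10 motoneuron markers, 4 reached a mean of 1 FPKM: Gfra1 lay between 8.76 and 16.6 FPKM, Nefh between 4.85 and 11.7 FPKM, Ret between 1.73 and 3.85 FPKM and Isl1 between 0.608 and 1.81 FPKM. The defining markers Chat and Mnx1 did not exceed 0.0692 and 0.0247 FPKM in any library, while all 10 markers of other spinal neurons and all 9 of radial glia and astrocytes reached a mean of 1 FPKM. The levels below are therefore those of the culture as sequenced, and in such bulk RNA fewer cells of a type and less RNA per cell cannot be told apart. The 2 libraries numbered 2 stood apart by fibroblast transcripts: the summed level of 7 fibroblast and meninges markers was 4.22, 176.5 and 3.63 FPKM in Nmd-/- replicates 1, 2 and 3, against 2.90, 143.2 and 2.74 FPKM in Nmd+/+ replicates 1, 2 and 3.

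The sequences that 3 of the most abundant lincRNAs share are those of a miRNA. AI854517 (Mir9-3hg in the GENCODE M21 annotation), Gm3764 and C130071C03Rik hold the 3 genomic copies of miR-9, a miRNA of neural progenitors and developing neurons. The mature sequences are shown because they were identical from all 3 loci in RefSeq (GRCm38.p6); capitals mark the seed, bases 2 to 8, which pairs with target transcripts.
mmu-miR-9-5p: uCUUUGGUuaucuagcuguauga
mmu-miR-9-3p: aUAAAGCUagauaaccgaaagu
The 5p arm lay at chr7:79505279-79505301 in AI854517, at chr3:88215613-88215635 in Gm3764 and at chr13:83738821-83738843 in C130071C03Rik, on the plus strand at each. The mature miRNAs themselves were not measured in these libraries. Rmst held miR-135a-2 and miR-1251, and E530001K10Rik (Mir670hg) held miR-670. In all, 7 of the 119 lincRNAs held an annotated miRNA with a mature sequence in RefSeq, each with a seed of its own apart from the miR-9 arms.
mmu-miR-135a-5p: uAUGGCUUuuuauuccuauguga
mmu-miR-670-5p: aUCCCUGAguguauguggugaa
mmu-miR-1839-5p: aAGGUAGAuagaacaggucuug
The last of these lies in 2900076A07Rik, which is described with the genotype comparison below. GENCODE M21 types its gene, Mir1839, as a small Cajal body RNA (scaRNA) and not as a miRNA.

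Promoter windows of 300 bases, from 250 before to 50 after the RefSeq start, were matched for 57 of the 119 lincRNAs. Those of 2 snoRNA hosts are shown first, because such hosts are known for starting transcription at a pyrimidine run (the terminal oligopyrimidine motif of ribosomal protein genes); capitals mark the longest run that begins within 5 bases of the start.
Snhg1, chr19:8723237-8723536, plus strand: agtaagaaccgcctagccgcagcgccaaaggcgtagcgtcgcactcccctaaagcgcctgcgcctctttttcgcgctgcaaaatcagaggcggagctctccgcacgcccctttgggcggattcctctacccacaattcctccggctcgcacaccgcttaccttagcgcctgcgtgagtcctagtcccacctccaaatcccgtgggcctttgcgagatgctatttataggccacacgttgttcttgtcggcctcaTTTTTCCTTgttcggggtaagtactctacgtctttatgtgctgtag
Snhg12, chr4:132308428-132308727, plus strand: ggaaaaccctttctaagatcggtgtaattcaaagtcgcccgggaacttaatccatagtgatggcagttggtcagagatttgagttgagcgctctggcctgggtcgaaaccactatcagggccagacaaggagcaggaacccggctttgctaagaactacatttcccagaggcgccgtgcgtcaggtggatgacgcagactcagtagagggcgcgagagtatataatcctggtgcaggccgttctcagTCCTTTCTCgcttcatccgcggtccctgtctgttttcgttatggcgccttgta
A run of at least 5 pyrimidines beginning within 5 bases of the start was present in 4 of the 6 hosts with an Snhg name in RefSeq and a window. It was present in 22.8% of the 57 windows and 22.0% of all 32851 windows. 2700038G22Rik, which holds Snord93 and is not among these 6, had a run of 7. Runs longer than the 9 bases of Snhg1 and Snhg12 also lay in lincRNAs that are not snoRNA hosts, with 14 in C130071C03Rik and 11 in Tunar. The next 2 windows belong to the neural lincRNAs that differed most between replicate numbers; capitals mark a CCAAT box in the window of 1500016L03Rik (Lhx1os) and the letters CCGCCC, the reverse complement of GGGCGG, in that of 2810011L19Rik (Tunar).
Lhx1os, chr11:84525410-84525709, plus strand: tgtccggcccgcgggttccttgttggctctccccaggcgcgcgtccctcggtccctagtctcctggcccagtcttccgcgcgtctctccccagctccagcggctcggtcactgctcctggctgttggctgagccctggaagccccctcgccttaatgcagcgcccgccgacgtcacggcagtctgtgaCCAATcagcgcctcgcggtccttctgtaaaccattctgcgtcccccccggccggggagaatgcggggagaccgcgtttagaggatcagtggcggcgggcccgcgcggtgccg
Tunar, chr12:105336344-105336643, plus strand: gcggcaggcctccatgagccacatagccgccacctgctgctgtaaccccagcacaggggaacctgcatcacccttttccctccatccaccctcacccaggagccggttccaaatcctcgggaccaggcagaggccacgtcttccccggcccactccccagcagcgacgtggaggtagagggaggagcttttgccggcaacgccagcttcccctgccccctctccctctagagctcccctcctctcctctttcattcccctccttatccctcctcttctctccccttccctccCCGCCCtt
Searched on both strands, the GC box GGGCGG was found in 59.6% of the lincRNA windows, against 63.7% of the windows of protein-coding genes tested and 35.7% of all windows. CCAAT was found in 40.4% of the lincRNA windows, 38.1% of those of protein-coding genes and 37.4% of all, and TATAAA in 8 of the 57 lincRNA windows, 6.69% of those of protein-coding genes and 13.6% of all. CACGTG was found in 8.77% of the lincRNA windows, 9.78% of those of protein-coding genes and 7.15% of all. TGACGTCA, the full cyclic AMP response element, was found in 4 lincRNA windows (7.02%), against 3.04% of those of protein-coding genes and 1.79% of all. No motif of these 5 lies within another. The median ratio of observed to expected CpG was 0.769 in the lincRNA windows, 0.759 in those of protein-coding genes and 0.384 in all. In the GC box and the CpG ratio the lincRNA windows were nearer to those of expressed protein-coding genes than to the whole table. These shares are descriptions with no test.

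By name and place the 119 lincRNAs were a mixed group. In GENCODE M21, 108 were found by identifier, and 78 of those were still typed as lincRNA; 9 were antisense, 7 bidirectional promoter lncRNAs, 6 processed transcripts and 4 protein-coding (6330403K07Rik, 1500011K16Rik, 2810011L19Rik and AI854703). Of these, 2 encode described micropeptides: 1500011K16Rik is Mtln, the gene of the mitochondrial peptide mitoregulin, and 2810011L19Rik is Tunar. A protein-coding locus was overlapped by 29 of the 119 (24.4%), against 463 of all 1705 autosomal lincRNAs (27.2%), and 53 others lay within 5 kb of one. Whether strand was used in quantification is not given in the sources used here, so reads of the 29 and of the genes they overlap cannot be told apart.

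The means ran from 2.01 to 18130 FPKM, with a median of 6.00 FPKM; 68 lincRNAs had a mean of at least 5 FPKM, 32 of at least 10 and 7 of at least 50. All 119 had an FPKM above 0 in every library and passed the filter of the genotype test. Gm26924 stood far above the rest, at 17980, 20210 and 17790 FPKM in Nmd-/- replicates 1 to 3, against 18180, 12670 and 21910 FPKM in Nmd+/+ replicates 1 to 3. Its locus (chr17:39846958-39848788, 1 exon) overlaps Rn18s-rs5, a RefSeq pseudogene of 18S ribosomal RNA, so reads of ribosomal RNA and of this gene cannot be told apart and its level is uncertain. It alone made up between 1.83% and 3.22% of the summed FPKM of a library, of a total of 2.05% to 3.45% for the 119. Without it the lincRNAs summed to 1498, 1528 and 1463 FPKM in Nmd-/- libraries and to 1508, 1532 and 1551 FPKM in Nmd+/+ libraries, a nearly constant amount.

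Malat1 (chr19:5795690-5802672), the long nuclear speckle RNA, came second, at 128.0, 215.7 and 132.4 FPKM in Nmd-/- replicates 1, 2 and 3, against 118.9, 213.7 and 153.3 FPKM in Nmd+/+ replicates 1, 2 and 3. In both genotypes replicate 2 was the highest. 1810058I24Rik (chr6:35252654-35263496), for which a mitochondrial micropeptide has been described in mouse, measured 161.4, 166.2 and 112.0 FPKM in Nmd-/- libraries, against 162.4, 122.8 and 105.7 FPKM in Nmd+/+ libraries, lowest in replicate 3 of each. 6330403K07Rik measured 78.5, 63.9 and 64.2 FPKM in Nmd-/- libraries, against 81.5, 55.6 and 80.3 FPKM in Nmd+/+ libraries. Gm26825 closed the highest 10, at 45.9, 35.1 and 47.1 FPKM in Nmd-/- libraries, against 42.9, 35.7 and 42.1 FPKM in Nmd+/+ libraries. In these 4 genes the ranges of the genotypes overlapped.

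**Figure D1:**
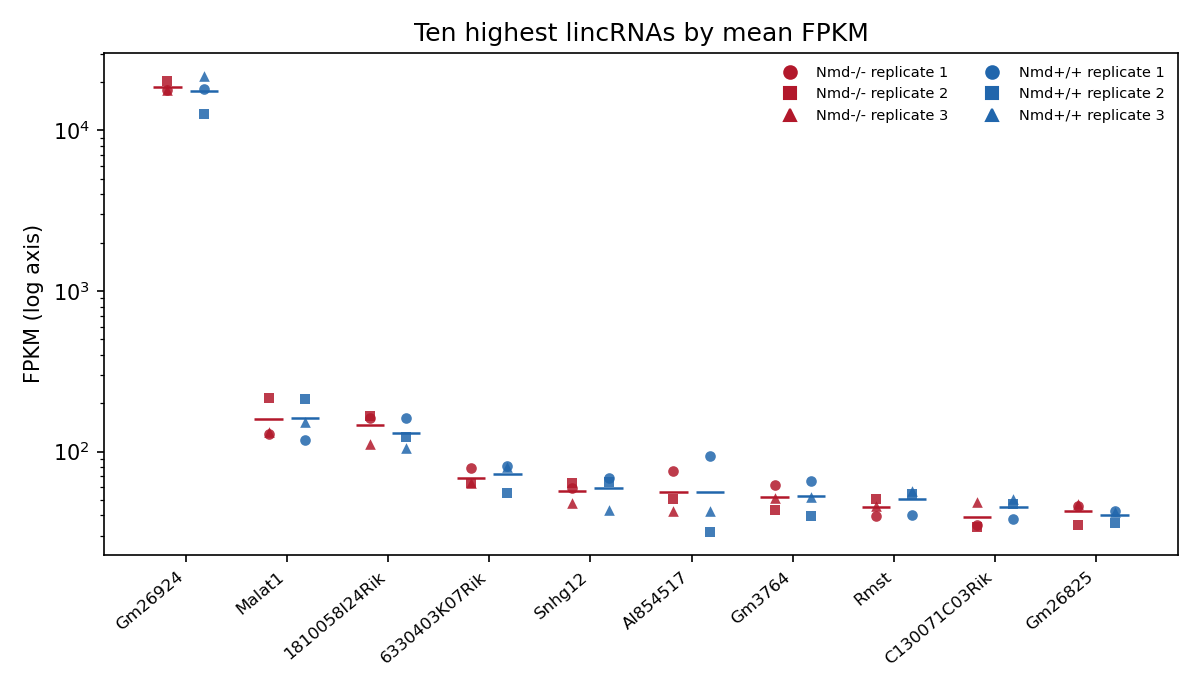
FPKM (log axis) of the 10 lincRNAs with the highest mean, in the 3 Nmd-/- libraries (red, left of each pair) and the 3 Nmd+/+ libraries (blue, right); the shape marks the replicate number and the bar the mean of a genotype. Gm26924 lies at 12670 FPKM or above in all libraries and the other 9 at 215.7 FPKM or below, with overlapping genotypes in each gene.

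Hosts of miRNAs spanned a wide range of levels. Of 15 hosts in the list, 13 were matched, 9 were typed as lincRNA and 4 were among the 119, while the other 5 lincRNA-typed hosts had means of 0.748 FPKM (Mir17hg) or less. None of the 4 passed the genotype test, and their median log2 difference was -0.02. AI854517 measured 75.3, 50.9 and 42.8 FPKM in Nmd-/- libraries, against 93.5, 31.6 and 42.6 FPKM in Nmd+/+ libraries. Gm3764 (not in that list) measured 61.5, 43.4 and 51.5 FPKM in Nmd-/- libraries, against 66.0, 39.7 and 51.9 FPKM in Nmd+/+ libraries. Both were highest in replicate 1 of each genotype. The third miR-9 host, C130071C03Rik, was highest in replicate 3 instead, at 35.1, 34.0 and 48.3 FPKM in Nmd-/- libraries, against 38.2, 47.0 and 50.7 FPKM in Nmd+/+ libraries. The host RNAs of the 3 miR-9 loci thus had similar levels, between 42.2 and 56.1 FPKM on average, but did not follow the replicate numbers in the same way. A930011O12Rik (Mir124a-1hg), named as the host of a copy of the neuronal miR-124, measured 11.3, 5.88 and 8.81 FPKM in Nmd-/- libraries, against 10.9, 5.70 and 10.3 FPKM in Nmd+/+ libraries, lowest in replicate 2 of each. E530001K10Rik measured 18.9, 12.2 and 11.1 FPKM in Nmd-/- libraries, against 19, 10.5 and 12.8 FPKM in Nmd+/+ libraries, highest in replicate 1 of each.

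Of 20 snoRNA hosts in the list, 16 were matched and 9 were typed as lincRNA, all 9 of them among the 119. Such genes are known for carrying small nucleolar RNAs, most of which guide the modification of ribosomal RNA; the locus of 2810008D09Rik (Snhg20) held a scaRNA and a miRNA instead. Their means ran from 2.95 FPKM (Snhg7) to 57.9 FPKM (Snhg12). None passed the genotype test; 3 had a positive and 6 a negative log2 difference, with a median of -0.04. Snhg12 (Snora16a, Snora44, Snora61 and Snord99) measured 59.3, 63.6 and 47.8 FPKM in Nmd-/- libraries, against 68.7, 65.0 and 43.1 FPKM in Nmd+/+ libraries. Snhg6 (Snord87) measured 20.4, 32.0 and 34.6 FPKM in Nmd-/- libraries, against 16.4, 61.8 and 37.8 FPKM in Nmd+/+ libraries. Snhg1, whose promoter is shown above, measured 7.98, 9.69 and 11 FPKM in Nmd-/- libraries, against 6.94, 15.6 and 8.52 FPKM in Nmd+/+ libraries. Of the 9, 6 (Snhg1 and Snhg6 included) had their highest replicate-number mean in number 2, and 5 their lowest in number 1. The others lay between these levels: the means were 23.6 FPKM for 2810008D09Rik (Snhg20), 19.5 FPKM for Snhg5, 19 FPKM for 0610007N19Rik (Snhg18), 6.43 FPKM for Snhg4 and 5.13 FPKM for 2410004N09Rik (Epb41l4aos). The abundant hosts Gas5 and Snhg3 are typed as processed transcripts in the tables and so fall outside the rule.

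The list of nuclear body and stable lincRNAs held 14 names, with Cyrano under 3 of them and Norad under 2. Of these names 10 were matched and 6 were among the 119; none passed the genotype test and their median log2 difference was 0.001. 1700020I14Rik (Cyrano), which carries a site for miR-7, measured 28.0, 23.8 and 28.5 FPKM in Nmd-/- libraries, against 28.1, 25.1 and 32.2 FPKM in Nmd+/+ libraries. Miat, a nuclear lincRNA of neural progenitors and retina, measured 8.91, 5.34 and 8.29 FPKM in Nmd-/- libraries, against 8.56, 6.10 and 7.55 FPKM in Nmd+/+ libraries. Both were lowest in replicate 2 of each genotype, the libraries in which Malat1 was highest. Pvt1, the neighbour of Myc, measured 4.14, 5.50 and 4.46 FPKM in Nmd-/- libraries, against 3.78, 6.75 and 3.90 FPKM in Nmd+/+ libraries, highest in replicate 2 of each. 4933436C20Rik (Crnde) measured 5.99, 4.63 and 4.79 FPKM in Nmd-/- libraries, against 4.99, 3.48 and 4.29 FPKM in Nmd+/+ libraries, higher in Nmd-/- in 3 of 3 same-numbered pairs without passing the test (log2 difference 0.23, SE 0.16, limma adjusted p = 0.9997). Neat1, the scaffold of paraspeckles, had a mean of 1.09 FPKM and did not reach the threshold.

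Of 20 neural lincRNAs in the list, 18 were matched and 3 were among the 119: Rmst, Lhx1os and Tunar. None passed the genotype test; the median log2 difference was -0.12, and all 3 were negative. Rmst (chr10:92071037-92165170), which in human neural progenitors takes part in neurogenesis with SOX2, measured 39.8, 50.4 and 45.9 FPKM in Nmd-/- libraries, against 40.1, 54.3 and 56.6 FPKM in Nmd+/+ libraries, lowest in replicate 1 of each. Its log2 difference was -0.14 (SE 0.17, limma adjusted p = 0.9997), with Nmd-/- lower in 3 of 3 pairs. Tunar (chr12:105336594-105383931), known for its part in neural differentiation of mouse embryonic stem cells, measured 10.3, 4.42 and 6.80 FPKM in Nmd-/- libraries, against 11.1, 3.74 and 9.52 FPKM in Nmd+/+ libraries, lowest in replicate 2 of each. Lhx1os is given with its neighbour Lhx1 below.

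Most of the variation of a typical lincRNA lay between replicate numbers. Over the 119, a median of 69.4% of the sum of squares of log2(FPKM + 1) lay between the 3 replicate numbers, against 73.2% for all 14611 genes tested. Some share lies between numbers under any numbering of so few libraries, and that part was not estimated. The range between the highest and the lowest replicate-number mean had a median of 0.37 (log2), against 0.35 for all genes tested, and exceeded 1 in 10 of the 119, where 4.24% of all genes tested did so. The share passed 90% in 18 lincRNAs and stayed under 10% in 4: 1600020E01Rik, 2700046G09Rik, C030037D09Rik and Gm10069. The number with the highest mean was 1 in 45 lincRNAs (37.8%), 2 in 38 (31.9%) and 3 in 36 (30.3%). Over all genes tested, the corresponding shares were 42.9%, 41.3% and 15.8%. All of this is a description, with no test.

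The gene with the widest range was Gm26723, which overlaps a protein-coding locus. It measured 4.67, 1.3 and 27.2 FPKM in Nmd-/- libraries, against 4.73, 9.93 and 59.7 FPKM in Nmd+/+ libraries, a range of 3.04 (log2). Replicate 3 was the highest in each genotype. Gm26735, whose locus partly overlaps that of the transcription factor gene Sox4, measured 5.10, 6.97 and 12.5 FPKM in Nmd-/- libraries, against 0.000711, 16.9 and 13.3 FPKM in Nmd+/+ libraries. Its range of 2.49 rested on Nmd+/+ replicate 1, where its interval was equivalent to fewer than 1 fragment, and was 1.19 without that library. Gm26827, inside the Chsy1 locus with 148 exonic bases, measured 2.52, 9.06 and 8.54 FPKM in Nmd-/- libraries, against 1.34, 11.8 and 7.01 FPKM in Nmd+/+ libraries, lowest in replicate 1 of each. Of the 10 widest ranges, 5 thus belonged to the 29 lincRNAs that overlap a protein-coding locus (17.2% of these), and 5 to the other 90 (5.56%).

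RP23-103I12.13 (chr14:69694475-69695834) followed the libraries with fibroblast transcripts. It measured 9.64, 28.8 and 12.0 FPKM in Nmd-/- libraries, against 8.40, 31.0 and 5.71 FPKM in Nmd+/+ libraries, highest in replicate 2 of each. Loxl2, which encodes a collagen cross-linking enzyme and has its locus 777 bases away, measured 4.78, 13.8 and 5.58 FPKM in Nmd-/- libraries, against 4.58, 14.1 and 2.70 FPKM in Nmd+/+ libraries, also highest in replicate 2 of each. With replicate 2 of both genotypes left out, the range of RP23-103I12.13 was 0.10 in place of 1.73. Gm26532, which begins where the hairpin of miR-24-2 ends, was also highest in replicate 2, at 3.42, 7.63 and 2.94 FPKM in Nmd-/- libraries, against 3.71, 6.09 and 2.17 FPKM in Nmd+/+ libraries. A830039N20Rik, in the locus of the potassium channel gene Kcnma1, was lowest there, at 10.8, 4.66 and 7.58 FPKM in Nmd-/- libraries, against 9.34, 3.64 and 10.3 FPKM in Nmd+/+ libraries. The fibroblast marker sums of the libraries are given above; their part in these ranges was not tested.

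**Figure D2:**
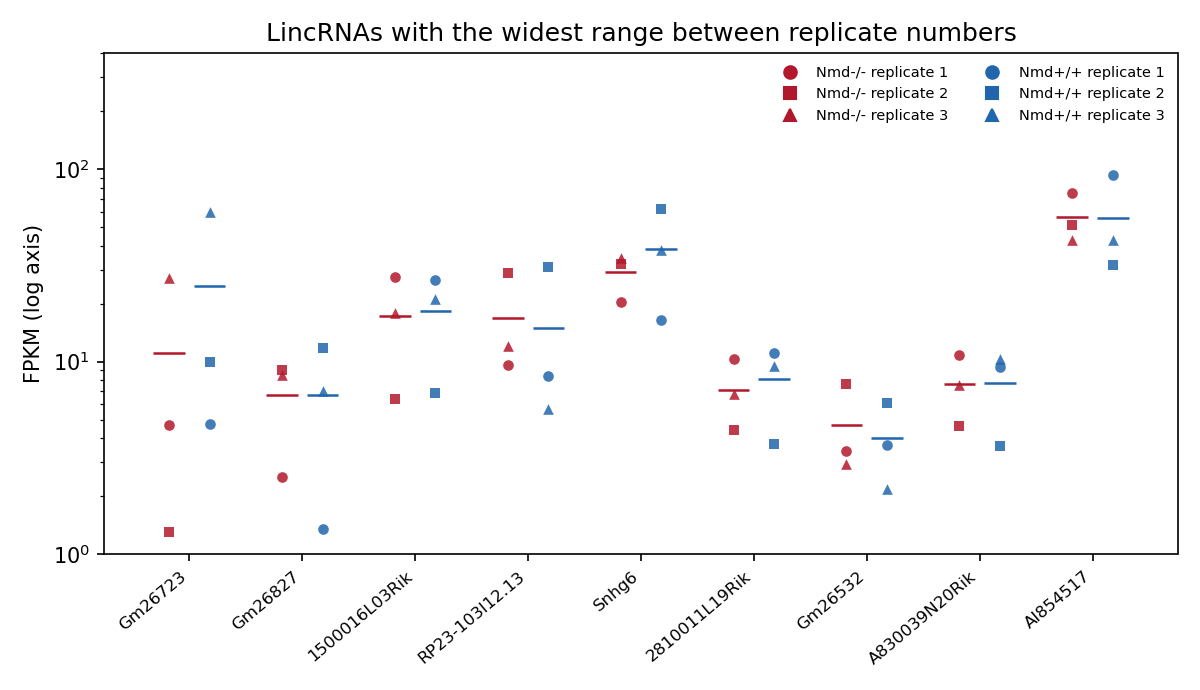
FPKM (log axis) of 9 of the 10 lincRNAs with the widest range between replicate-number means, Nmd-/- libraries in red on the left of each pair and Nmd+/+ libraries in blue on the right, with the shape for the replicate number and the bar for the genotype mean. Gm26735 is left out because 1 of its values is near 0; in 1500016L03Rik, RP23-103I12.13, 2810011L19Rik and Gm26532 replicate 2 stands at one end in both genotypes.

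Head-to-head starts with a protein-coding gene, at most 1000 bases apart on opposite strands, were found for 21 of the 119 lincRNAs, at distances between 74 and 709 bases. The coding partner had the higher mean FPKM in 16 of the 21 pairs. The pair had its highest replicate-number mean in the same number in 12 of 21 and its lowest in the same number in 10 of 21. Lhx1os (chr11:84525660-84535831) and Lhx1, a LIM homeobox gene of spinal interneurons, start 125 bases apart. Lhx1os measured 27.6, 6.38 and 17.9 FPKM in Nmd-/- libraries, against 26.7, 6.84 and 21.2 FPKM in Nmd+/+ libraries. Lhx1 measured 26.8, 9.12 and 17.6 FPKM in Nmd-/- libraries, against 24.5, 8.27 and 19.9 FPKM in Nmd+/+ libraries. Both were highest in replicate 1 and lowest in replicate 2 of each genotype, and 99.2% of the sum of squares of Lhx1os lay between replicate numbers. The summed level of the 10 markers of other spinal neurons, Lhx1 among them, was also highest in replicate 1 and lowest in replicate 2: 271.0, 142.8 and 199.5 FPKM in Nmd-/- libraries, against 286.6, 130.2 and 258.9 FPKM in Nmd+/+ libraries. Its part in the levels of Lhx1os was not tested.

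1110054M08Rik (Lppos) varied less than its partner Lpp and followed it only in part. In Nmd-/- both were highest in replicate 2, but in Nmd+/+ the lincRNA was highest in replicate 1 and Lpp in replicate 2. This lincRNA, whose first bases overlap the start of Lpp, had a range of 0.19 between replicate numbers, against 1.13 for Lpp, a gene of focal adhesions. The lincRNA measured 3.17, 4.20 and 3.25 FPKM in Nmd-/- libraries, against 3.63, 3.05 and 2.81 FPKM in Nmd+/+ libraries, where Lpp measured 4.09, 9.21 and 5.30 FPKM in Nmd-/- libraries, against 3.84, 10.5 and 3.88 FPKM in Nmd+/+ libraries. 1600020E01Rik, which starts beside Pcbp1, was level throughout, with 7.29 ± 0.666 FPKM in Nmd-/- libraries and 7.65 ± 0.560 FPKM in Nmd+/+ libraries (SD, n = 3 each).

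**Figure D3:**
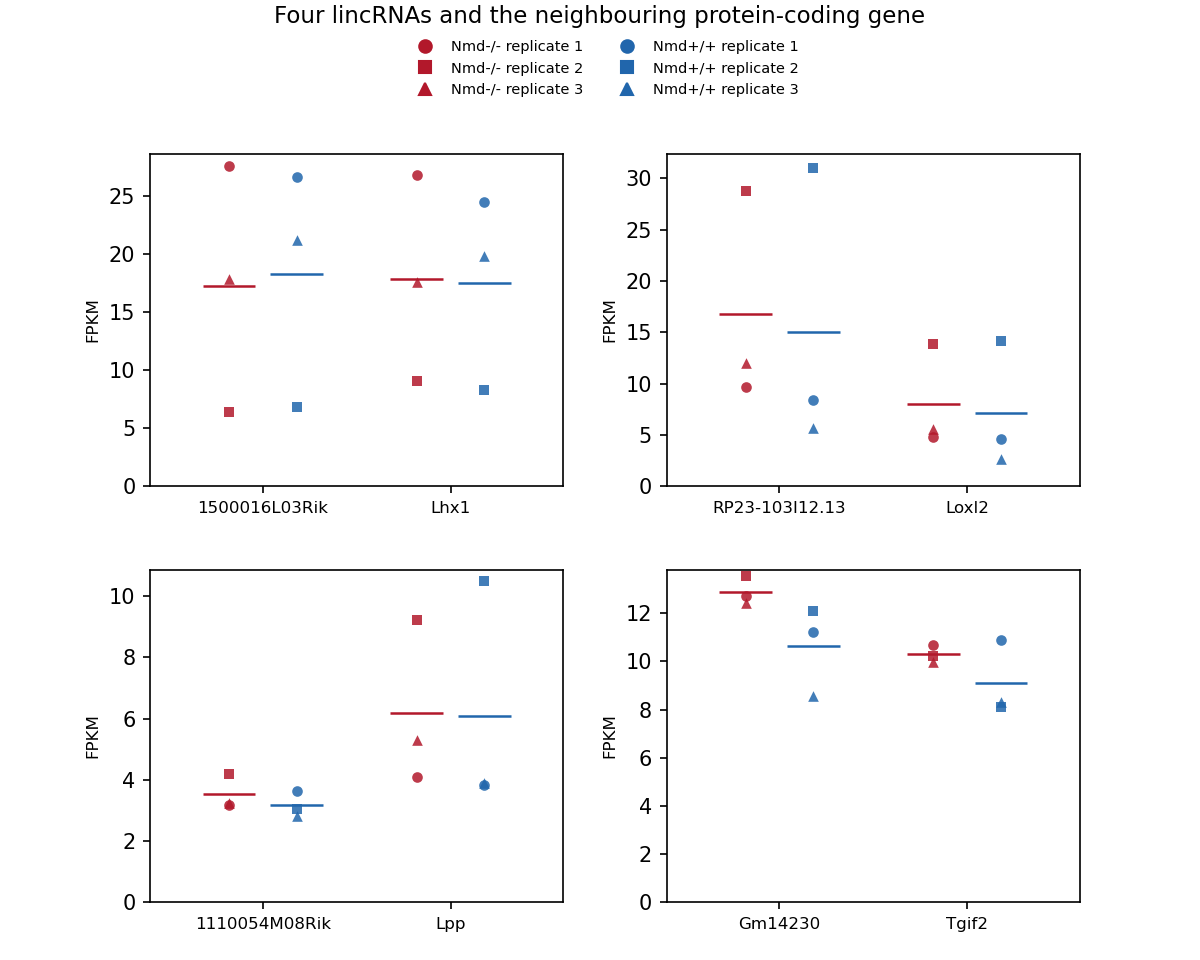
FPKM of 4 lincRNAs and the neighbouring protein-coding gene in the 3 Nmd-/- libraries (red, left) and the 3 Nmd+/+ libraries (blue, right), 1 panel per pair, with the shape for the replicate number and the bar for the genotype mean; 1500016L03Rik is Lhx1os. Lhx1os and Lhx1 take the same order of replicate numbers and RP23-103I12.13 and Loxl2 share the highest number; 1110054M08Rik varies less than Lpp between replicate numbers, and Gm14230 lies beside Tgif2 at a like level.

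No lincRNA passed the genotype test. The comparison asked whether levels differ between Nmd-/- and Nmd+/+ cultures, in 1 limma fit across all genes tested with genotype as the only term and Benjamini-Hochberg adjustment. It called 0 of the 119, where 0.0% of the 14611 genes tested were called, and the adjusted p of every lincRNA was 0.9997. At an unadjusted p under 0.05 it found 1 lincRNA, AU020206, against 0.445% of all genes tested. With the replicate number as a block, 0 were called as well (smallest limma adjusted p of a lincRNA 0.913). In that fit 7 had an unadjusted p under 0.05, 5 of them higher in Nmd-/-, where 4.87% of all genes tested passed that limit. Without the block, differences between replicate numbers count as error: the median SE of the 119 was 0.178, against 0.119 with it. The p-values of the fit with genotype alone are therefore conservative if the replicate numbers mark shared preparations, which no label says. The median log2 difference of the 119 was 0.003, against 0.017 over all genes tested; 62 were positive and 57 negative. The 95% interval of the difference lay within 1 on the log2(FPKM + 1) scale for 109 of the 119, and reached past it for 10.

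**Figure D4:**
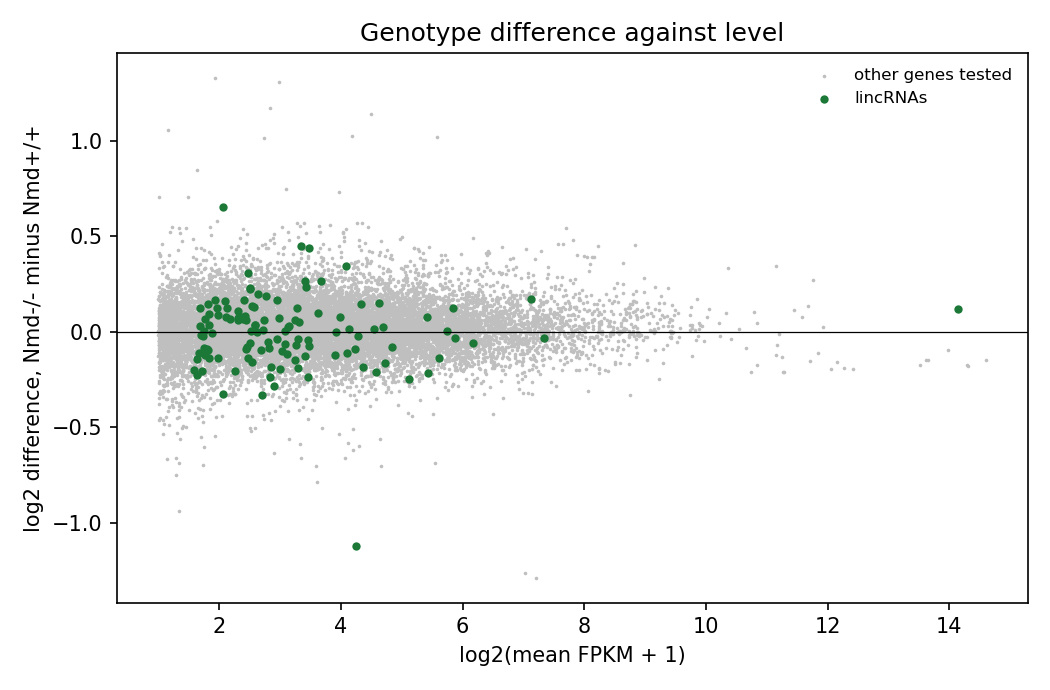
Genotype difference (log2, Nmd-/- minus Nmd+/+, fitted on log2(FPKM + 1)) against log2(mean FPKM + 1) for the 119 lincRNAs (green) and the other genes tested (grey); the line marks 0. The lincRNAs lie between -1.12 (Gm26723) and 0.65 (Gm26765), and only these go past 0.5.

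In 5 of the 119 lincRNAs the genotypes did not overlap, where 2.67% of all genes tested did not. Of these, 3 were higher in Nmd-/- (1.76% of all genes tested) and 2 lower (0.91%). AU020206 (chr7:75769762-75782099), a spliced transcript on the minus strand, measured 11.9, 11.1 and 12.4 FPKM in Nmd-/- replicates 1, 2 and 3, against 10.8, 7.69 and 7.17 FPKM in Nmd+/+ replicates 1, 2 and 3. Its log2 difference was 0.44 (SE 0.17, limma unadjusted p = 0.0316 and adjusted p = 0.9997; with the replicate block, unadjusted p = 0.00612). 2700038G22Rik, which holds Snord93, measured 5.11, 5.16 and 5.12 FPKM in Nmd-/- libraries, against 4.73, 4.16 and 3.11 FPKM in Nmd+/+ libraries (log2 difference 0.31, SE 0.15; 0.17 without Nmd+/+ replicate 3). The Nmd-/- values were nearly equal and those of Nmd+/+ spread below them. Gm14230 measured 12.7, 13.5 and 12.4 FPKM in Nmd-/- libraries, against 11.2, 12.1 and 8.57 FPKM in Nmd+/+ libraries (log2 difference 0.27, SE 0.15; 0.13 without Nmd+/+ replicate 3). Tgif2, a homeobox repressor gene that starts 115 bases from it, measured 10.7, 10.2 and 9.99 FPKM in Nmd-/- libraries, against 10.9, 8.09 and 8.30 FPKM in Nmd+/+ libraries, and overlapped between genotypes.

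The 2 that lay lower did so by less. 2900076A07Rik, the locus of miR-1839, measured 5.33, 6.17 and 5.64 FPKM in Nmd-/- libraries, against 6.33, 6.38 and 7.19 FPKM in Nmd+/+ libraries (log2 difference -0.18, SE 0.12). A730020E08Rik, whose first bases overlap the start of Ccser1, measured 2.11, 1.72 and 2.29 FPKM in Nmd-/- libraries, against 2.43, 2.42 and 2.62 FPKM in Nmd+/+ libraries (log2 difference -0.20, SE 0.13; -0.13 without Nmd-/- replicate 2). In both, and also in AU020206 and Gm14230, the gap between the nearest libraries of the genotypes was smaller than the range within Nmd-/-. In 2700038G22Rik the gap was larger than that range but smaller than the range within Nmd+/+. The adjusted p was 0.9997 for all 5 in the limma fit.

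**Figure D5:**
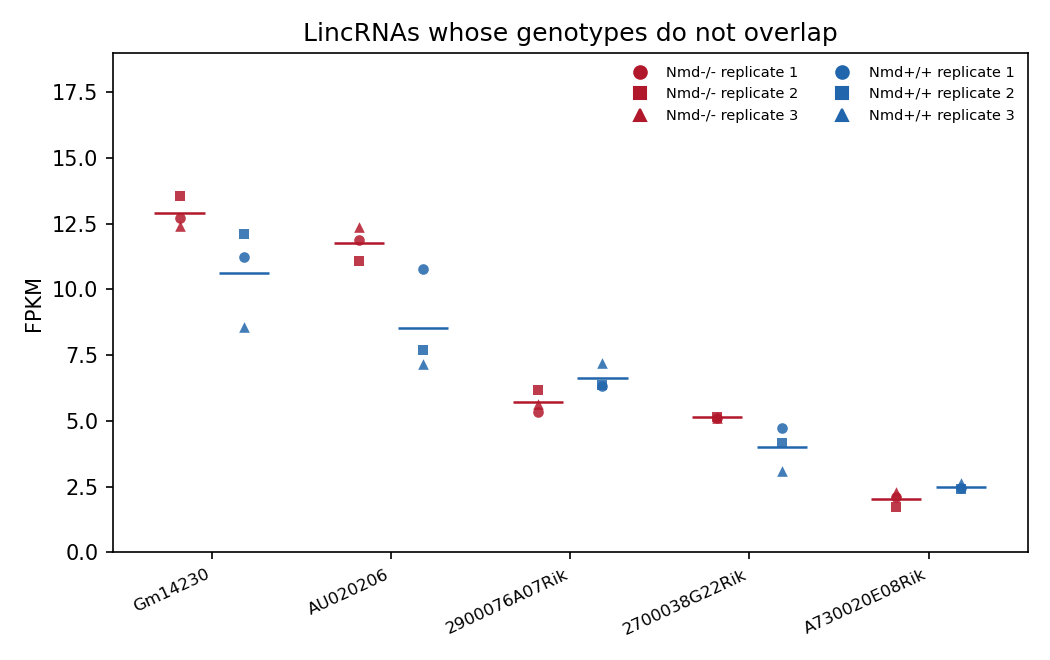
FPKM of the 5 lincRNAs whose genotypes did not overlap, Nmd-/- libraries in red on the left of each pair and Nmd+/+ libraries in blue on the right, with the shape for the replicate number and the bar for the genotype mean. In AU020206 the Nmd-/- libraries lie between 11.1 and 12.4 FPKM and the Nmd+/+ libraries between 7.17 and 10.8 FPKM.

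The 2 largest fitted differences belonged to lincRNAs that overlap protein-coding loci. Gm26765, in the locus of the lamin-associated protein gene Tmpo, measured 2.57, 4.57 and 4.94 FPKM in Nmd-/- libraries, against 1.02, 4.04 and 1.98 FPKM in Nmd+/+ libraries, higher in Nmd-/- in 3 of 3 pairs (log2 difference 0.65, SE 0.35; with the replicate block, limma unadjusted p = 0.00217). Gm26723, given above, was lower in Nmd-/- in 3 of 3 pairs (log2 difference -1.12, SE 1.08; with the block, limma unadjusted p = 0.00411). Neither passed adjustment in either fit, and their genotypes overlapped. Both are named here for the size of their differences, and the pairing comes from the values, so their unadjusted p-values are descriptions only. The deposited intervals cover estimation error within a library. By these, the same-numbered libraries of the 2 genotypes lay apart in 11.8% of the 119 lincRNAs for number 1, 34.5% for number 2 and 30.3% for number 3. The shares of all genes tested were 10.6%, 39.9% and 40.1%. Between 2 libraries of the same genotype the lincRNAs lay apart at least as often: in 35.3% to 43.7% for Nmd-/- and in 43.7% to 55.5% for Nmd+/+. For all genes tested these shares were 43.9% to 54.5% and 50.7% to 64.7%. Lying apart by these intervals is thus no sign of a genotype difference.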

How the data were processed

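RNA-seq libraries were made from total RNA with a Lexogen mRNA kit, per the labels' protocols. The authors deposited FPKM per gene with 95% interval bounds and a status, 1 Cufflinks table per library, per the file headers. Cufflinks 2.2.1, SAMtools 1.3, cutadapt 1.8, Trim Galore 0.4.0, FastQC 0.10.1 and the build GRCm38 are listed in the submitters' processing notes. The annotation release and strand use are not given in these sources. FPKM is relative to each library's own total, so a few abundant genes can shift all others. File positions start from 0 (adding 1 matched the GENCODE M21 start in 77.8% of 37646 genes); they are printed from 1.

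Levels were compared as Nmd-/- minus Nmd+/+ with limma 3.58.1 in R 4.3.3, with an intensity trend, on log2(FPKM + 1), which understates changes of low genes. Genes with a mean of at least 1 FPKM and an accepted status in all 6 libraries entered (14611). Tests were two-sided, with Benjamini-Hochberg adjustment over all genes tested and a threshold of 0.05. The procedure was tested on simulated data. FPKM tables hold no counts: fragments were read from interval widths as an equivalent and cover counting error only. Deviations from the genotype mean correlated between same-numbered libraries at 0.82, 0.70 and 0.39 across genes for the numbers 1, 2 and 3. Between differently numbered libraries the correlations ran from -0.81 to 0.28. The highest of these, for Nmd-/- replicate 1 with Nmd+/+ replicate 3, was near that of number 3. Across all genes tested the pairing of number 3 is therefore weak. Across the included lincRNAs alone, the deviations of same-numbered libraries correlated at 0.716, 0.623 and 0.755 for the numbers 1, 2 and 3. Those of differently numbered libraries ran from -0.786 to 0.06, with 0.01 for Nmd-/- replicate 1 with Nmd+/+ replicate 3. The pairing by replicate number comes from the values, not from a label, and same-numbered libraries differed in Xist for the numbers 2 and 3. Alternatives were a replicate block, a pseudocount of 0.1, no filter, median-of-ratios scaling, no intensity trend, a minimum mean of 5 FPKM, and leaving out each library or replicate 2 of both genotypes.

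The genes and lists were chosen with earlier results of these data known. Named genes were the 10 highest means, the 10 widest replicate ranges, those with non-overlapping genotypes, the list members, the genes at the threshold, and their neighbours; Gm26765 and the head-to-head pairs shown were chosen after their values were seen. Some neighbouring genes are not reported here.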

Additional observations from a re-analysis of the deposited data

How the results depend on the processing

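The count of 0 lincRNAs called by limma held under every alternative run, as did that of 0 over all genes tested, and the Ighmbp2 log2 difference stayed negative (-0.70 with a pseudocount of 0.1; not tested at a mean of at least 5 FPKM). The replicate block left the median log2 difference (0.0027), the count of non-overlapping lincRNAs (5) and the median replicate share (69.4%) as they were, since these do not use the block, and it changed no call. The median log2 difference, near 0 throughout, was -0.0258 at a mean of at least 5 FPKM, -0.0175 with median-of-ratios scaling, -0.0288 with replicate 2 of both genotypes left out, and between -0.0173 and 0.0273 without single libraries. The count of non-overlapping lincRNAs was 3 of 68 with a minimum mean of 5 FPKM (4.41%, against 2.21% of all genes tested) and 6 with median-of-ratios scaling (5.04%, against 2.85%). It was 26 (21.8%) with replicate 2 of both left out, where 25.3% of all genes tested did not overlap, and between 9 and 34 without single libraries, as fewer libraries overlap less often. The highest, 34 (28.6%, against 18.2% of all genes tested), was without Nmd+/+ replicate 1; the next, 21 (17.6%, against 19.2%), was without Nmd+/+ replicate 2. Without Nmd-/- replicates 1, 2 and 3 the counts were 10 (8.4%, against 6.28% of all genes tested), 9 (7.56%, against 7.26%) and 12 (10.1%, against 8.33%), and without Nmd+/+ replicate 3 it was 9 (7.56%, against 4.48%). The median replicate share was 61.9% with replicate 2 of both left out and between 68.3% and 83.0% without single libraries. Without a single library, 1 number is left with 1 library, so these shares are not directly comparable with that of all 6 libraries. With replicate 2 of both left out, the range between replicate-number means was 0.46 for Lhx1os, 0.37 for Tunar, 0.37 for Gm26532 and 0.17 for A830039N20Rik. The range of Gm26735 was 4.17 with a pseudocount of 0.1.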

Other observations

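LincRNAs on the X chromosome were outside the rule, and 8 of them reached a mean of 2 FPKM. Xist, which coats the silenced X chromosome, measured 224.5, 258.9 and 0.143 FPKM in Nmd-/- replicates 1, 2 and 3, against 226.3, 0.155 and 272.6 FPKM in Nmd+/+ replicates 1, 2 and 3. Same-numbered libraries therefore differed in Xist for the numbers 2 and 3, and replicates of a genotype did not all carry it. Jpx, its neighbour and activator, measured 4.09, 4.03 and 3.2 FPKM in Nmd-/- libraries, against 3.83, 3.08 and 4.27 FPKM in Nmd+/+ libraries, and was also lowest in the 2 libraries in which Xist was near 0. Gm27000 and Gm26958 are listed at nearly the same positions (chrX:88759471-88760312 and chrX:88759471-88760310), so their reads cannot be divided with certainty. Gm26958 measured 43.8, 7.33 and 6.9 FPKM in Nmd-/- libraries, against 36.1, 0.000961 and 8.46 FPKM in Nmd+/+ libraries. Gm27000 measured 20.9, 23.2 and 30.2 FPKM in Nmd-/- libraries, against 22.3, 24.7 and 37.4 FPKM in Nmd+/+ libraries.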
